A study of Mus musculus with 12 samples.

Results

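Mice that lacked Stat5a and kept 1 Stat5b allele were compared with mice that lacked Stat5a and kept both Stat5b alleles, which asks how mammary transcripts differ when the remaining Stat5b dose is lowered. The first group is labelled Stat5abnull/Stat5a- and is called single-Stat5b here: 1 chromosome carries the allele named null for both genes and the other lacks Stat5a alone. The second group is labelled Stat5a-/-. Mammary tissue of 3 mice per genotype was collected on day 6 after a plug, all from a background mixed from the strains C57BL/6, FVB and 129. By these genotype labels every mouse of the comparison carried 0 intact Stat5a alleles, so neither group is a wild type. However, Stat5a-/- samples carry ABB in their titles and Stat5ab+/null samples AAB, which do not match those genotypes if each letter is an intact allele. What the letters stand for is unknown here, the genotype labels were followed, and allele numbers below are as labelled. The study's other groups were Stat5ab+/null, with 1 allele of each gene, and Stat5abnull/Stat5b-, called single-Stat5a here, with 1 Stat5a allele and 0 Stat5b alleles. These form a second pair that also differs by 1 Stat5b allele. The labels describe the samples as sorted cells and speak of PolyIC injection that activates Mx1-Cre, whereas the design text gives whole mammary tissue. The design text was followed, and the labels leave unclear if any mouse received PolyIC.

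A gene entered the comparison when at least 2 probe sets that name it alone had a mean log2 signal, over all 12 arrays, at or above the 30th percentile of probe set means. These were 6841 of the 14202 genes tested (48.2%). A gene's level is the mean of those probe sets. Genes whose probe sets all moved the same way are reported apart from the others, and a call is a limma p-value under 0.05 after Benjamini-Hochberg adjustment over all 14202 genes. Every difference is given as single-Stat5b minus Stat5a-/- on the log2 scale with its standard error, unless another pair is named. The labels do not say more than that the samples are separate mice. The tests set the difference of 3 against 3 arrays beside a spread pooled within the 4 genotypes of all 12 arrays. With the spread taken from the compared arrays only, 3555 of the 6841 genes were called instead of 4132. For a single gene, an exact permutation test of 3 against 3 cannot go below p = 0.1.

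STAT5A and STAT5B are closely related transcription factors that JAK2 phosphorylates after prolactin, growth hormone and several cytokines bind their receptors. In the mammary gland they act below the prolactin receptor and are needed for the growth of alveoli in pregnancy and for milk protein genes, with STAT5A the main form in the epithelium. STAT5 dimers bind the palindrome TTCNNNGAA, in which N is any base, and the letters read the same on both strands.

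The promoter windows of 60 genes were searched for it, those of the milk, secretory, hormone-sensing, STAT5 target and JAK-STAT lists and those with a called interaction. It was found in 4 of them, Csn2, Socs3, Bcl6 and Tnfrsf19, and upstream sequences are shown for the 3 long known to respond to STAT signals. Only the first listed window of each gene was read, and matches on a chromosome that was set aside were not counted, so 4 is a lower limit. Csn2 encodes beta-casein, Socs3 an inhibitor of cytokine receptor signalling, and Bcl6 a transcriptional repressor. Each run is the 200 bases before the RefSeq start in build GRCm38.p6, 5′ to 3′ on the gene's own strand, with the palindrome in capitals. The Csn2 stretch is chr5:87699426-87699625 on the minus strand, the Socs3 stretch chr11:117969367-117969566 on the minus strand, and the Bcl6 stretch chr16:23988853-23989052 on the minus strand.
Csn2: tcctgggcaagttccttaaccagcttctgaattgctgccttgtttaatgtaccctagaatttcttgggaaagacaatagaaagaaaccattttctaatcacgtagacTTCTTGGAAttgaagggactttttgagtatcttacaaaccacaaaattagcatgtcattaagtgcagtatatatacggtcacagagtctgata
Socs3: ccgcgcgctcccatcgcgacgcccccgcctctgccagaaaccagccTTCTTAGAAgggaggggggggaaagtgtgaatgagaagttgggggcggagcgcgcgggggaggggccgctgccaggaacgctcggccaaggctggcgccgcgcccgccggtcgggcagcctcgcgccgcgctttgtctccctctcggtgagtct
Bcl6: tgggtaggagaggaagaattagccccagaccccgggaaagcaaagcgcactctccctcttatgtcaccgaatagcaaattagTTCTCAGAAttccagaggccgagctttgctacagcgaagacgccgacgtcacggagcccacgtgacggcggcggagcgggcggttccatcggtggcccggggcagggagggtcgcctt

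The palindrome starts 93 bases before the start of Csn2, 154 before that of Socs3 and 118 before that of Bcl6. It was present in 8.47% of the 27025 genes with a RefSeq window, which spans 250 bases before to 50 after the start, and in 6.15% of the 5499 genes of the comparison with such a window. Windows were found for 80.4% of those 6841 genes. A match describes these letters alone and is not a measured binding site.

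The 12 arrays fell into separate sets of 6 by their control probe sets, and the comparison crosses them: Stat5a-/- and Stat5ab+/null lie in one, single-Stat5b and single-Stat5a in the other. Array set and allele number therefore cannot be told apart in any single gene of this comparison. The difference between the actin probe sets at the 3′ and 5′ ends was 0.15 ± 0.02 (SD, n = 3) on the Stat5a-/- arrays and 2.78 ± 0.87 on the single-Stat5b arrays, in log2 units. For Gapdh it was -0.04 ± 0.06 and 2.17 ± 1.52. The spiked hybridization controls averaged 11.63 ± 0.03 and 13.09 ± 0.34. Actin itself differed by -1.84 at its 3′ probe set, -3.49 in the middle and -4.47 at its 5′ probe set, and the pyruvate carboxylase controls by -2.07 at the 3′ end and -4.76 at the 5′ end. The transferrin receptor controls were higher instead, by 0.87 at the 3′ end, 1.01 in the middle and 0.36 at the 5′ end. Arrays correlated at r = 0.983 to 0.993 among Stat5a-/-, 0.957 to 0.973 among single-Stat5b, and 0.821 to 0.875 between the groups, over 45101 probe sets. The median standard deviation of a gene was 0.13 among Stat5a-/- arrays and 0.28 among single-Stat5b arrays. In whole tissue, fewer cells of a type and less RNA per cell cannot be told apart.

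Most genes were called between the groups, and in 1866 of the 4132 called genes the probe sets did not agree in direction. Of all genes tested, 59% were called (8382 of 14202), and of the genes with several probe sets 60.4% (4132 of 6841), of which 2370 were higher and 1762 lower in single-Stat5b mice. The probe sets of 2686 genes (39.3%) moved the same way, in 1439 upward and in 1247 downward, and those of 4155 genes (60.7%) did not. In 2144 genes (31.3%), probe sets were called in opposite directions. Among genes with all probe sets in 1 direction, 1225 were called higher (17.9% of 6841) and 1041 lower (15.2%). Their median differences were 1.20 and -1.15, and 790 and 631 of them differed at least 2-fold. In 1150 of the 6841 genes (16.8%), no single-Stat5b array overlapped a Stat5a-/- array in any probe set, and 1140 of these belonged to the 2266 called genes with 1 direction. When a gene was read from its brightest probe set alone, 927 of the 1225 and 696 of the 1041 were still called.

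The share of genes whose probe sets agreed fell with the number of probe sets. Such a fall arises even where signs are independent, since more of them have to match. By coin toss, 2 probe sets would agree as often as not, which is near the share found for them. With 3 or more, the shares found were above those of a coin toss. The share was 51.1% with 2 probe sets (1944 of 3805 genes), 31.4% with 3, 18.1% with 4 and 10.2% with 5 or more (54 of 529). The median gap between the highest and the lowest probe set difference of a gene was 1.75 here and 1.71 in the second pair, which crosses the array sets in the same direction. Within an array set it was 0.32 for single-Stat5b minus single-Stat5a and 0.22 for Stat5a-/- minus Stat5ab+/null. Probe sets of a gene thus lay farther apart in both pairs that cross the sets than in the pairs that do not.

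**Figure D1:**
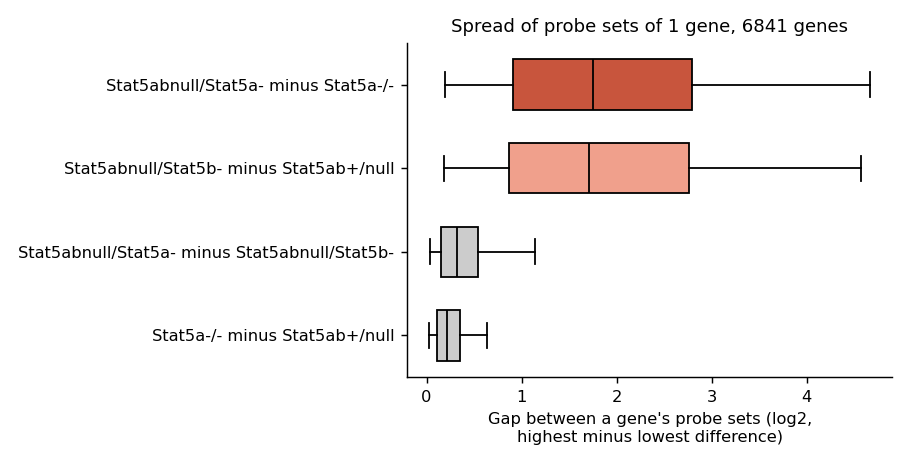
Gap between the highest and the lowest log2 difference among the probe sets of a gene, for 6841 genes and 4 pairs of genotypes (boxes: quartiles with the median as a line; whiskers: 5th to 95th percentile). The medians are 1.75 and 1.71 in the pairs that cross the array sets (red) and 0.32 and 0.22 in the pairs that do not (grey).

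Stat5a and Stat5b themselves did not have probe sets of 1 direction. One Stat5a probe set read 10.40, 10.40 and 10.10 on the Stat5a-/- arrays and 10.98, 11.09 and 10.87 on the single-Stat5b arrays, a difference of 0.68 ± 0.19. The other read 9.17, 9.10 and 8.55 against 4.98, 5.05 and 5.14, a difference of -3.88 ± 0.25. The first was thus higher and the second lower in single-Stat5b mice, without overlap in either, although the labels give both groups 0 Stat5a alleles. In the second pair, where both groups keep 1 Stat5a allele, the same probe sets differed by 2.30 and -3.08. Which part of the transcript the deletions remove and where these probes lie were not analysed here, so a Stat5a signal in Stat5a-/- mice checks nothing about the labels.

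Stat5b was lower in 1 of its 2 probe sets. That probe set read 8.38, 8.23 and 8.21 on the Stat5a-/- arrays and 6.79, 6.62 and 6.95 on the single-Stat5b arrays, a difference of -1.49 ± 0.17 with no overlap. The other read 9.63, 9.63 and 9.51 against 9.65, 9.36 and 9.89, a difference of 0.04 ± 0.18 with overlapping groups. In the second pair, where the last Stat5b allele is lost, they differed by -2.38 and -0.47. The mean of the Stat5b probe sets differed by -0.72 ± 0.15 (limma adjusted p = 0.00158), but the brighter probe set alone gave 0.04 (adjusted p = 0.852). The interaction, which is the difference between the pairs, was 0.70 ± 0.22 for Stat5b (adjusted p = 0.26) and -1.21 ± 0.29 for Stat5a (adjusted p = 0.099).

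Other genes had probe sets far apart in opposite directions. Gm2a, the activator protein for ganglioside breakdown, had probe sets at -6.51, 0.38 and 2.66. Rab2a, a small GTPase of the early secretory pathway, ranged from -1.73 to 6.73 over 6 probe sets, and Ppm1a, a protein phosphatase, from -4.20 to 4.56 over 7. Spsb1 ranged from -2.20 to 6.22, Ust, a sulfotransferase, had -2.80 and 5.31, and Aldh2, mitochondrial aldehyde dehydrogenase, ranged from -2.72 to 5.30. A gene mean for these 6, the widest of their kind, has no single direction to report. Their brightest probe sets reversed the sign of the mean for Gm2a (0.38 against -1.16), Rab2a (-0.46 against 2.22), Ust (-2.80 against 1.25) and Aldh2 (-0.57 against 1.37).

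**Figure D2:**
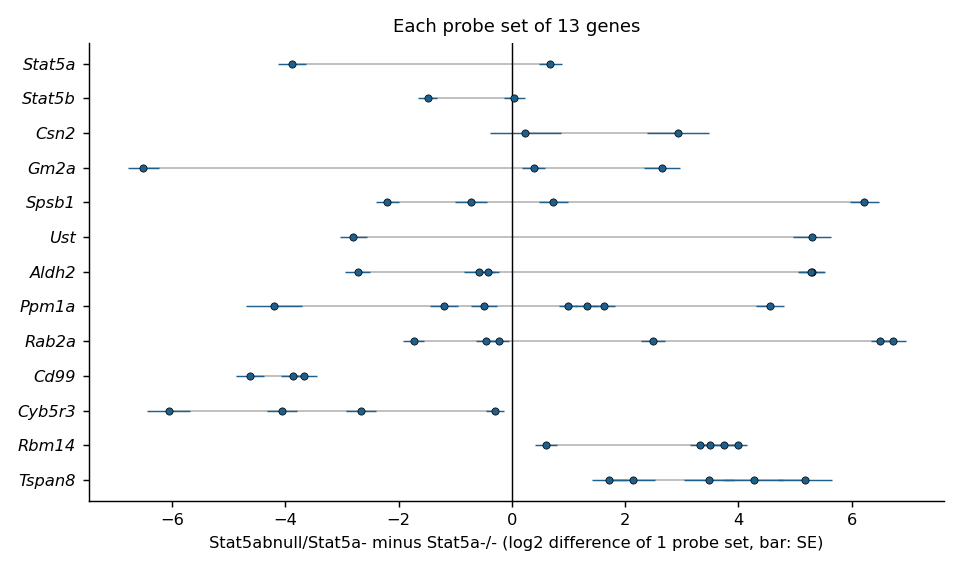
Log2 difference of single-Stat5b (Stat5abnull/Stat5a-) minus Stat5a-/- for every probe set past the signal filter of 13 genes (points; bars: standard error; grey line: span of a gene). Stat5a spans -3.88 to 0.68 and Gm2a -6.51 to 2.66, whereas the 5 probe sets of Tspan8 and of Rbm14 all lie above 0 and the 3 of Cd99 all lie below.

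The 10 largest rises with all probe sets in 1 direction and no overlap ran from 3.34 for Serinc4 to 5.04 for Mndal. Mndal, an interferon-inducible nuclear protein of the PYHIN family, read 4.76, 4.64 and 4.71 on the Stat5a-/- arrays and 9.50, 10.25 and 9.47 on the single-Stat5b arrays. Its difference was 5.04 ± 0.34 (limma adjusted p = 3.34e-07), and the Stat5a-/- level lies below the signal filter, so the size of its fold rests on a signal near the lower end of the scale. Map3k12, a kinase of the JNK pathway, read 6.63, 6.64 and 6.43 against 10.92, 11.43 and 10.71. Its 3 probe sets rose by 2.62, 5.42 and 5.31. Shisa2, which retains Wnt and FGF receptors in the endoplasmic reticulum, read 7.67, 7.99 and 7.93 against 12.04, 12.63 and 11.97, a difference of 4.36 ± 0.23. All single-Stat5b arrays were far above all Stat5a-/- arrays in these 3 genes.

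Further rises in this group were E430024I08Rik by 4.84 ± 0.29, Tmeff1, a transmembrane protein with follistatin-like domains, by 3.98 ± 0.34, Adamts4, an aggrecan-cleaving protease, by 3.53 ± 0.24, Ccdc43 by 3.37 ± 0.21 and Serinc4 by 3.34 ± 0.16. Igha, the constant region of immunoglobulin A that plasma cells make, read 6.58, 8.83 and 7.32 on the Stat5a-/- arrays and 11.61, 10.47 and 12.03 on the single-Stat5b arrays. It varied by 2.25 log2 units among Stat5a-/- arrays and still did not overlap. These 9 genes, Mndal, Map3k12 and Shisa2 included, were also higher in the second pair, by 2.96 (Igha) to 5.01 (E430024I08Rik). None of their interactions was called, with adjusted p from 0.835 (Adamts4) to 0.995 (Serinc4).

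Rises were also seen over many probe sets. Tspan8, a tetraspanin of epithelial membranes, rose in all of its 5 probe sets, by 1.72 to 5.18. Its levels were 6.17, 6.15 and 5.73 on the Stat5a-/- arrays and 10.23, 9.73 and 8.17 on the single-Stat5b arrays, of which the third was lowest but still above every Stat5a-/- array. Rbm14, an RNA-binding coactivator, rose by 0.60 to 3.99 over 5 probe sets, and Kansl1l by 0.96 to 5.29 over 5. Those of 4930453N24Rik rose by 0.94 to 5.10 over 4. Nr2c2, an orphan nuclear receptor, differed by 0.05 to 4.47 over 5, the smallest value coming from its brightest probe set, which is not called (adjusted p = 0.825).

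The 10 largest falls with agreeing, non-overlapping probe sets ran from -4.05 for Cd99 to -3.18 for Stambp. Cd99, a surface glycoprotein, read 12.01, 11.80 and 12.19 on the Stat5a-/- arrays and 7.92, 7.61 and 8.31 on the single-Stat5b arrays. Its 3 probe sets fell by 4.63, 3.87 and 3.66 on the log2 scale, so they agreed in size as well. Dbp, a PAR bZIP factor driven by the circadian clock, read 12.14, 12.06 and 11.99 against 8.40, 7.45 and 8.52, a difference of -3.94 ± 0.27. Cebpb, a bZIP factor needed for mammary ducts and alveoli, read 11.39, 11.49 and 11.54 against 8.37, 7.89 and 7.61. Its difference was -3.52 ± 0.20 (limma adjusted p = 1.25e-07), and its probe sets fell by 2.73 and 4.30. The groups were separate in each of these genes, with all single-Stat5b arrays below.

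Plau, the urokinase plasminogen activator, had 10.36, 9.20 and 8.35 on the Stat5a-/- arrays, the widest spread among these falls, and 5.50, 6.10 and 5.75 on the single-Stat5b arrays, a difference of -3.52 ± 0.51. Its single-Stat5b level lies near or below the signal filter. Msn, which links actin to the membrane, fell by 3.59 ± 0.22, but its probe sets differed by -0.99 and -6.19. Txnip, a redox-sensitive arrestin that restrains glucose uptake, likewise had -1.12 and -6.03 beside a mean of -3.58 ± 0.28. Csrp1, a LIM protein of smooth muscle, fell by 3.35 ± 0.40, Inpp5k, a phosphoinositide phosphatase, by 3.26 ± 0.19, and Stambp, a deubiquitinase, by 3.18 ± 0.26. These 9 genes were lower in the second pair as well, from -4.62 for Cd99 to -2.89 for Stambp. None of their interactions was called, with adjusted p from 0.598 (Cebpb) to 0.997 (Dbp and Plau).

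Falls over 4 or more probe sets were led by Cyb5r3, cytochrome b5 reductase, whose 4 probe sets differed by -0.29 to -6.06. Pex6, an ATPase of peroxisome assembly, ranged from -0.47 to -3.82 over 5, and its brightest probe set alone is not called (adjusted p = 0.091). Cotl1, an actin-binding protein, ranged from -0.51 to -4.13 over 6, and Ninj1, an adhesion molecule of membrane rupture, from -1.44 to -4.57 over 4. Aplp2, a relative of the amyloid precursor, ranged from -0.93 to -5.12 over 5. Agreement in direction thus went with wide differences in size between the probe sets of these genes.

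**Figure D3:**
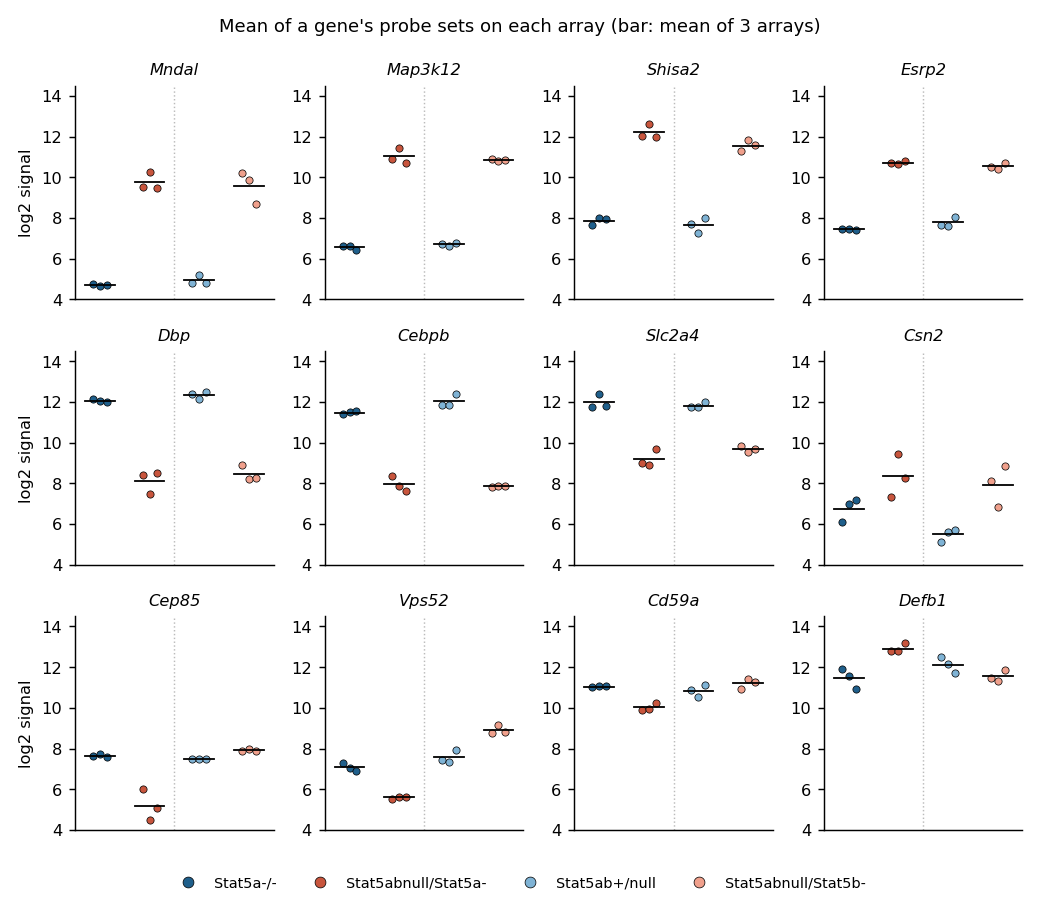
Mean log2 signal of the probe sets of 12 genes on each array (points) with the mean of 3 arrays (bar), for the 4 genotypes; the dotted line separates the pair Stat5a-/- and Stat5abnull/Stat5a- from the pair Stat5ab+/null and Stat5abnull/Stat5b-. Mndal, Map3k12, Shisa2, Esrp2, Dbp, Cebpb and Slc2a4 differ alike in both pairs, whereas the differences of Cep85, Vps52, Cd59a and Defb1 have opposite signs, of which only that of Vps52 is called in both pairs.

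The gene lists that follow are read against the 17.9% of the 6841 genes that were called higher and the 15.2% called lower with agreeing probe sets. Milk protein genes gave few measurements, and their direction rests on single probe sets and arrays. Of 14 genes listed, 11 passed the signal filter and 2 had several probe sets, of which Csn2 was called higher. Csn2 read 6.08, 6.99 and 7.16 on the Stat5a-/- arrays and 7.32, 9.44 and 8.23 on the single-Stat5b arrays, a difference of 1.58 ± 0.55 (limma adjusted p = 0.026). The groups did not overlap in the mean, but 1 probe set differed by 2.93 ± 0.55 and the other by 0.24 ± 0.62. Without the first Stat5a-/- array its difference was 1.25 and its adjusted p 0.103, and without the second single-Stat5b array 1.03 and 0.121. Csn3, which encodes kappa-casein, differed by 0.59 ± 0.31 and was not called. The second pair gave 2.45 for Csn2 and 1.45 for Csn3.

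Of the genes of secretory differentiation, 2 of 5 rose and none fell. Slc2a1, the glucose transporter GLUT1, read 9.45, 9.82 and 9.00 on the Stat5a-/- arrays and 12.32, 12.23 and 12.21 on the single-Stat5b arrays, with 3 probe sets rising by 3.38, 1.92 and 3.19. Ceacam10, a carcinoembryonic antigen relative, read 5.94, 6.15 and 5.69 against 9.02, 8.58 and 8.39, and its probe sets rose by 0.96 and 4.50. Both were separate in all probe sets. Ceacam10 rose by 1.14 in the second pair, and its interaction of 1.59 was not called (adjusted p = 0.0913). Elf5, the factor that specifies alveolar cells, differed by -0.57 ± 0.29 here and by -2.12 in the second pair, with an interaction of 1.55 that was not called (adjusted p = 0.148). The median of the list was 0.68 here and -0.86 in the second pair, against 0.10 and 0.09 over the 6841 genes.

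Among known STAT5 and cytokine targets, all 5 genes with probe sets of 1 direction fell, of 12 measured, beside 15.2% of all genes called lower in that way. Tnfsf11, the RANK ligand through which progesterone drives alveolar growth, read 11.84, 11.30 and 10.71 on the Stat5a-/- arrays and 8.70, 9.43 and 8.64 on the single-Stat5b arrays, a difference of -2.36 ± 0.40. Bcl2l1, the survival factor BCL-XL, fell by 1.86 ± 0.31 without overlap in any of its 3 probe sets. Id2, an inhibitor of basic helix-loop-helix factors needed for alveoli, fell by 1.51 ± 0.27, Ccnd1, cyclin D1, by 1.43 ± 0.17, and Wnt4, a ligand below progesterone, by 1.28 ± 0.23. The brightest probe set alone gave -0.21 for Tnfsf11, -0.11 for Id2 and -0.50 for Ccnd1, none of them called. The second pair gave -2.55, -2.40, -1.60, -1.15 and -2.36 for the 5 genes in that order.

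A further 6 of the 12 target genes were called with probe sets in both directions. Socs3 had 1 probe set lower (-1.56) and 2 higher (2.58 and 2.47), and Bcl6 had 3.30 and -0.26. Socs2, a feedback inhibitor of growth hormone signalling, differed by -0.89 ± 0.21 in the mean, Pim1, a survival kinase, by -0.88 ± 0.22, Ghr, the growth hormone receptor, by -0.78 ± 0.18, and Igf1 by -0.51 ± 0.16. None of the 12 interactions was called. The median of the list was -0.89 here and -0.76 in the second pair.

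Most components of JAK-STAT signalling had probe sets that disagreed. Of 19 measured genes, 1 rose and 3 fell with all probe sets in 1 direction, and 13 were called with probe sets in both directions. Ptpn6, a phosphatase of cytokine receptors in blood cells, fell by 2.33 ± 0.52, with 9.79, 9.70 and 11.43 on the Stat5a-/- arrays and 8.05, 7.22 and 8.66 on the single-Stat5b arrays. Pias3, an inhibitor of STAT3, fell by 1.37 ± 0.20, and Stat6, the interleukin-4 factor, by 1.24 ± 0.24, but their brightest probe sets gave -0.19 and -0.23 and were not called. Csf2rb, the shared beta chain of the GM-CSF, interleukin-3 and interleukin-5 receptors, rose by 1.18 ± 0.26. The second pair gave differences of the same sign for these 4 genes, -2.69, -1.37, -1.19 and 0.81.

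Genes of hormone-sensing luminal cells moved in both directions. Pgr, the progesterone receptor, read 7.93, 8.11 and 7.88 on the Stat5a-/- arrays and 9.49, 9.66 and 9.28 on the single-Stat5b arrays, a difference of 1.50 ± 0.20 without overlap. Tbx3, a T-box factor of the mammary line, rose by 0.98 ± 0.23 over 4 probe sets, whereas Tnfsf11 and Wnt4 fell as above. Esr1, the estrogen receptor, differed by 0.52 ± 0.24 and was not called. Pgr rose by 0.79 and Tbx3 differed by 0.27 in the second pair, with interactions of 0.71 and 0.71 that were not called (adjusted p = 0.518 and 0.642).

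Markers of the luminal epithelium did not move as 1 group: 2 of 8 measured genes rose and 2 fell. Esrp2, an epithelial splicing regulator, read 7.47, 7.43 and 7.39 on the Stat5a-/- arrays and 10.68, 10.64 and 10.81 on the single-Stat5b arrays, a difference of 3.28 ± 0.15. Ovol1, a zinc finger repressor, rose by 0.68 ± 0.22, and lost its call without the second Stat5a-/- array (0.65, adjusted p = 0.0507) or the first single-Stat5b array (0.46, 0.0697). Cldn3, a tight junction protein, fell by 2.11 ± 0.35 over 4 probe sets, and Spint2, a protease inhibitor, by 1.36 ± 0.28. Krt8, the luminal keratin, differed by -0.37 ± 0.21 and Epcam by 0.15 ± 0.20, and neither was called. The mean level of the 23 listed genes past the signal filter ran from 10.21 to 10.46 on the Stat5a-/- arrays and from 9.60 to 10.18 on the single-Stat5b arrays. Krt8 and Epcam, which mark epithelium, were thus measured in both groups of the labelled tissue.

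In the basal epithelium list, 2 of 8 measured genes fell and none rose, a count near the 15.2% of all genes called lower. Krt14, the basal keratin, read 10.47, 10.62 and 10.05 on the Stat5a-/- arrays and 9.20, 8.66 and 9.54 on the single-Stat5b arrays, a difference of -1.25 ± 0.28. Acta2, smooth muscle actin, fell by 1.12 ± 0.28, from 11.06, 10.91 and 10.06 to 9.68, 9.41 and 9.60. Both were separate in every probe set, and both were lower in the second pair too, by -1.02 and -0.94.

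White fat genes were lower where their probe sets agreed. Of 8 measured genes, 4 fell and none rose, and the median of the list was -1.09 here and -0.89 in the second pair. Slc2a4, the insulin-regulated glucose transporter GLUT4, read 11.77, 12.36 and 11.78 on the Stat5a-/- arrays and 8.97, 8.90 and 9.68 on the single-Stat5b arrays, a difference of -2.79 ± 0.23. Pck1, which feeds glycerol synthesis in fat, fell by 2.22 ± 0.44, Gpd1, glycerol-3-phosphate dehydrogenase, by 1.71 ± 0.21, and Adipor2, an adiponectin receptor, by 1.18 ± 0.16. The brightest Pck1 probe set gave -0.66 and was not called (adjusted p = 0.0706). Fabp4, the fatty acid binding protein of fat, was called lower in the mean of its 4 probe sets (-1.01 ± 0.18), which did not agree. The mean level of the 17 listed genes past the signal filter ran from 12.02 to 12.33 on the Stat5a-/- arrays and from 10.67 to 11.39 on the single-Stat5b arrays, without overlap. The second pair did not overlap either, with 11.98 to 12.27 in Stat5ab+/null and 11.33 to 11.56 in single-Stat5a. Nor is this particular to fat. The means of the basal epithelium, STAT5 target and ribosomal protein lists, among others, were also separate here, whereas those of the macrophage list overlapped. The part of fat cell number in any other result was not tested.

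Fatty acid and triglyceride synthesis, which gland epithelium and fat cells share, gave 4 falls and no rise with agreeing probe sets among 17 measured genes. Dgat2, which makes triglyceride, read 13.98, 14.14 and 14.04 on the Stat5a-/- arrays and 12.48, 11.64 and 12.42 on the single-Stat5b arrays. Me1, malic enzyme, fell by 1.65 ± 0.21, Lpin1, a phosphatidate phosphatase, by 0.86 ± 0.19 and Scd1, a desaturase, by 0.64 ± 0.16. The brightest probe sets of Me1 and Scd1 gave -0.57 and -0.29 and were not called. Lpin1 differed by 0.34 in the second pair, and its interaction of -1.20 was not called (adjusted p = 0.0741). Acaca and Lpl also had probe sets of 1 direction and differed by -0.53 and -0.26, not called.

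Of 17 measured cell cycle genes, 5 rose and 1 fell with agreeing probe sets, beside 17.9% and 15.2% of all genes. Prc1, a protein of the spindle midzone, read 7.61, 8.23 and 8.86 on the Stat5a-/- arrays and 10.17, 10.99 and 10.74 on the single-Stat5b arrays, a difference of 2.40 ± 0.30. Tpx2, a spindle assembly factor, rose by 2.54 ± 0.32, Bub1, a checkpoint kinase, by 1.68 ± 0.21, Mcm4, a replicative helicase subunit, by 1.36 ± 0.27 and Ccna2, cyclin A2, by 1.01 ± 0.32. Rrm1, a subunit of ribonucleotide reductase, fell by 1.56 ± 0.39, and its brightest probe set gave -0.16, not called. Top2a differed by 0.55 ± 0.29 and was not called. With no filter on low signal, the difference of Tpx2 was 0.32 and not called (adjusted p = 0.192). The third Stat5a-/- array was the highest of its group for each of Prc1, Tpx2, Bub1, Mcm4 and Ccna2. The second pair gave 2.66, 2.41, 1.65, 1.16 and 0.61 for these 5 genes.

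Circadian output genes fell together with Dbp. Of 10 measured clock genes, 4 fell and 1 rose with agreeing probe sets. Per3 fell by 2.04 ± 0.16 in all of its 5 probe sets, with 9.34, 9.23 and 9.04 on the Stat5a-/- arrays and 7.20, 7.00 and 7.30 on the single-Stat5b arrays. Nr1d2, the repressor REV-ERB beta, fell by 1.69 ± 0.18 and Bhlhe41 by 0.76 ± 0.22. Clock, an activator of the loop, rose by 1.05 ± 0.21, from 9.10, 8.81 and 8.61 to 9.60, 10.32 and 9.74. No label gives the hour at which tissue was collected, and its part in these values was not tested. The second pair gave -1.73 for Per3, -1.40 for Nr1d2 and 1.23 for Clock.

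Immediate early genes gave 3 rises and 1 fall among 8 measured. Egr2, a zinc finger factor, read 9.10, 9.56 and 9.30 on the Stat5a-/- arrays and 11.64, 12.29 and 12.07 on the single-Stat5b arrays, a difference of 2.68 ± 0.20. Btg2, an antiproliferative factor, fell by 2.54 ± 0.28, from 10.28, 10.03 and 10.07 to 7.69, 7.06 and 8.00. Jund rose by 0.43 ± 0.16 and Klf4 by 0.69 ± 0.27, and both lost the call without single arrays, Jund without the first or the third Stat5a-/- or the first single-Stat5b array, and Klf4 without 8 of the 12 arrays, left out singly. Without the first single-Stat5b array Jund differed by 0.27 (adjusted p = 0.126), and without the third Stat5a-/- array Klf4 differed by 0.44 (adjusted p = 0.177). The second pair gave 2.21 for Egr2 and -2.50 for Btg2.

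**Figure D4:**
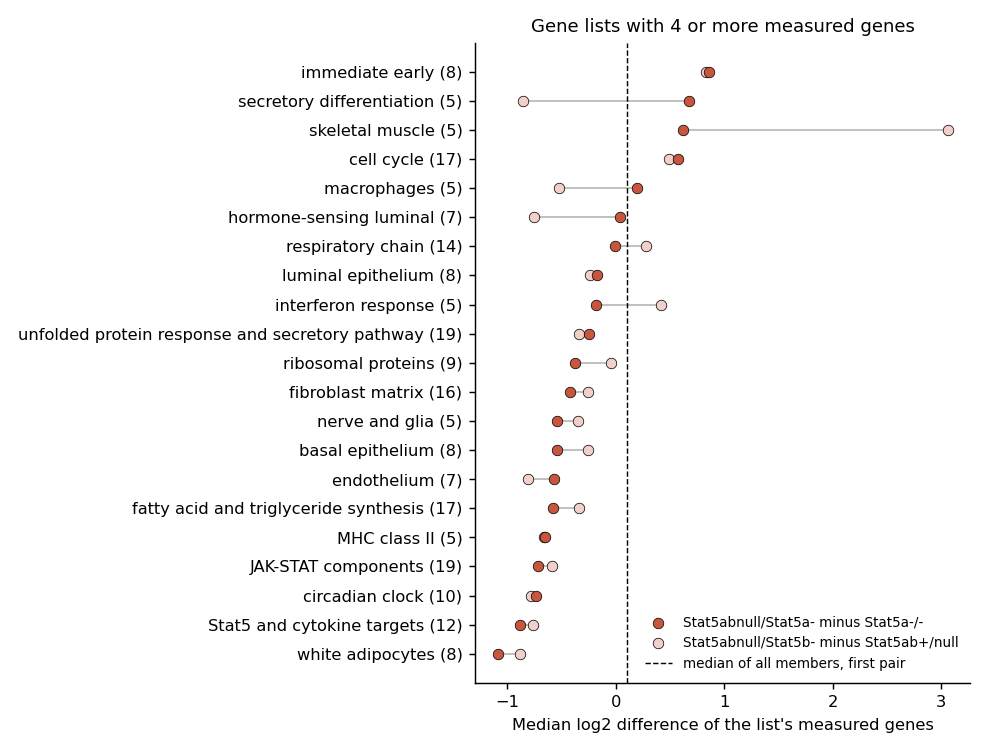
Median log2 difference of the measured genes of 21 gene lists (number of genes in brackets), for single-Stat5b (Stat5abnull/Stat5a-) minus Stat5a-/- (dark) and for single-Stat5a (Stat5abnull/Stat5b-) minus Stat5ab+/null (light); the dashed line is the median of all 6841 genes in the first pair, 0.10. White adipocyte genes have the lowest median, -1.09, and immediate early genes the highest, 0.86; the secretory differentiation and skeletal muscle lists differ most between the pairs.

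Immune genes gave few measurements. Of 5 measured class II genes, 2 fell and none rose with agreeing probe sets. The mean level of the 9 listed genes past the signal filter overlapped, with 10.19 to 11.86 on the Stat5a-/- arrays and 9.84 to 10.49 on the single-Stat5b arrays. H2-Aa and H2-Ab1, chains of the class II molecules that present antigen, fell by 1.36 ± 0.25 and 1.23 ± 0.31. H2-Aa read 12.89, 13.21 and 13.63 on the Stat5a-/- arrays and 11.59, 11.78 and 12.26 on the single-Stat5b arrays. The brightest H2-Ab1 probe set gave -0.47, not called. Cybb, the NADPH oxidase subunit of phagocytes, fell by 1.65 ± 0.25 over 3 probe sets, the only 1 of 5 measured macrophage genes called with 1 direction. Of the B cell markers Ms4a1 and Cd22, the third Stat5a-/- array read 11.84 and 10.68 where the other Stat5a-/- arrays read at most 6.32 and 6.68, and neither gene was called. These B cell markers were thus high on 1 of the 3 Stat5a-/- arrays. The mean level of the 14 listed B and plasma cell genes past the signal filter was 6.57 to 10.41 on the Stat5a-/- arrays and 7.14 to 8.10 on the single-Stat5b arrays, and its part in the Igha and class II values was not tested.

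Of 5 measured interferon response genes, 2 rose with probe sets of 1 direction, and both depend on the setting. Rsad2, the antiviral protein viperin, read 8.57, 7.91 and 7.83 on the Stat5a-/- arrays and 8.91, 10.07 and 9.84 on the single-Stat5b arrays, a difference of 1.50 ± 0.36. It was not called after quantile normalization (0.10) or with no filter on low signal (0.21). Nor was it called without any 1 of the single-Stat5a arrays (0.21) or of the single-Stat5b arrays (0.49, 0.02 and 0.12). The single-Stat5a arrays do not enter this difference, but leaving out an array can change which probe sets pass the signal filter. Xaf1, a pro-apoptotic factor, rose by 1.48 ± 0.41, but its brightest probe set gave 0.11, not called. Stat2 and Ddx58 were called lower in the mean with disagreeing probe sets, by -0.72 and -0.65.

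In the fibroblast matrix list, 4 of 16 measured genes fell and 1 rose, against 15.2% and 17.9% of all genes. Fn1, fibronectin, read 12.10, 11.99 and 11.82 on the Stat5a-/- arrays and 11.01, 10.55 and 10.69 on the single-Stat5b arrays, a difference of -1.22 ± 0.21. Fbln1, Sparc and Bgn fell by 0.90 ± 0.21, 0.88 ± 0.14 and 0.65 ± 0.17, and the brightest probe sets of Fbln1 and Sparc gave -0.18 and -0.20, not called. Pdgfrb, the receptor of pericytes and fibroblasts, rose by 1.63 ± 0.20. In the endothelium list, Egfl7 fell by 1.38 ± 0.20 over 4 probe sets, Cdh5, VE-cadherin, by 0.98 ± 0.22 and Erg by 0.57 ± 0.16. Ptprb rose by 0.67 ± 0.25 and lost its call without the third Stat5a-/- array (0.49, adjusted p = 0.14), the second, or the first or the third single-Stat5b array. Differences in the second pair had the same sign for these genes, from -1.66 for Fn1 to 1.41 for Pdgfrb.

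Genes of other tissues were measured in few cases. None of 5 skeletal muscle genes was called, and the mean level of the 19 listed genes past the signal filter ran from 6.68 to 9.06 on the Stat5a-/- arrays and from 7.51 to 9.90 on the single-Stat5b arrays. Ryr1 differed by 1.61 ± 0.74 and Myh1 by 2.11 ± 1.23, and the third array was the highest in both groups. Of 3 brown fat genes, Ppargc1a, a coactivator of mitochondrial genes, rose by 1.84 ± 0.26 and Prdm16 by 1.49 ± 0.21. Prph, a neuronal filament, fell by 0.75 ± 0.19 among 5 nerve and glia genes, and its brightest probe set gave -0.47, not called. No skin keratinocyte gene of 2 was called. The only measured T cell gene, Zap70, was called lower in the mean of disagreeing probe sets.

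Ribosomal protein genes gave 4 falls and no rise among 9 measured, with a median of -0.38, and respiratory chain genes had a median of -0.01. Rps14 read 14.28, 14.23 and 14.32 on the Stat5a-/- arrays and 12.59, 12.34 and 13.11 on the single-Stat5b arrays, Rps9 fell by 1.12 ± 0.17, and Rps6 by 0.61 ± 0.15. From its brightest probe set alone, Rps6 differed by -0.31 and was not called (limma adjusted p = 0.139). The same value came without any 1 single-Stat5a array (adjusted p from 0.122 to 0.127). These arrays do not enter the difference, but without them the other probe set no longer passed the signal filter. Rpl7 fell by 0.38 ± 0.14 and lost its call without the second single-Stat5b array (-0.24, adjusted p = 0.0809), any 1 Stat5a-/- array, the first or the second Stat5ab+/null array or the first single-Stat5a array. Of 14 respiratory chain genes, 4 fell and 1 rose. Sdhc fell by 1.46 ± 0.18, Ndufv2 by 0.98 ± 0.14 and Cox5a by 0.54 ± 0.14, and Ndufv1 fell by 0.75 ± 0.28, or by 0.34 without the second single-Stat5b array (adjusted p = 0.0723), and it was also not called without the second or the third Stat5a-/- array. Ndufb8 rose by 0.73 ± 0.14. The brightest probe sets of Sdhc and Ndufb8 gave -0.25 and 0.04, neither called.

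The unfolded protein response and secretory pathway gave 3 rises and 3 falls among 19 measured genes. Pdia6, a disulfide isomerase of the endoplasmic reticulum, read 9.79, 9.88 and 9.85 on the Stat5a-/- arrays and 8.54, 7.86 and 8.74 on the single-Stat5b arrays, a difference of -1.46 ± 0.20. Herpud1 fell by 1.25 ± 0.20 and Spcs2, a signal peptidase subunit, by 1.09 ± 0.12. Atf6, a sensor of unfolded protein, rose by 1.06 ± 0.13, but its brightest probe set gave 0.16, not called. Sec24a, a coat protein of transport vesicles, rose by 0.96 ± 0.19, and Ssr3 by 0.35 ± 0.14. Sec61a1, the protein-conducting channel, was called lower in the mean (-2.19 ± 0.16) with probe sets in both directions.

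The second pair, single-Stat5a minus Stat5ab+/null, shares no array with the comparison, crosses the array sets in the same direction and also loses 1 Stat5b allele, but in mice that keep 1 Stat5a allele. In it, 60.4% of the 6841 genes were called as well (4132). Of the 1225 genes that rose here, 1214 (99.1%) were also above 0 there and 986 (80.5%) were called with all probe sets higher. Of the 1041 that fell, 1024 (98.4%) were below 0 and 862 (82.8%) were called with all probe sets lower. Across genes, the differences of the pairs correlated at r = 0.926 (Spearman 0.93, 6841 genes) and at 0.947 among the 2686 genes with 1 direction. Genes are not independent replicates, and both differences hold the array set as well as the allele. The median difference of the genes that rose was 1.20 here and 1.07 there, and of those that fell -1.15 and -1.12.

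In the interaction, which subtracts the second pair from the first, a shift between array sets that is equal in both pairs cancels. The control probe sets did not all shift alike. The 5′ Gapdh probe set differed by -2.35 here and -1.51 there, that of actin by -4.47 and -4.00, and that of pyruvate carboxylase by -4.76 and -4.99. An unequal shift does not cancel, and its part in the interaction was not tested. The interaction was called in 35 genes with all probe sets of 1 sign (0.512% of 6841), of which 10 were above 0 and 25 below. At an unadjusted p under 0.05 there were 415 genes (6.07%), whatever their probe sets. Where no gene differed, a share near 0.05 would still pass that threshold. Among the 35 genes, 14 were also called with all probe sets in 1 direction in the comparison itself, 5 as rises and 9 as falls. The other 21 were not called with probe sets of 1 direction in the comparison. Of the 14, 8 had differences of opposite sign in the pairs, of which Phkg1, Vps52, Ctsl and Rps6 were called in both and Cep85, Cd59a, 2610507I01Rik and Defb1 only here. Another 5 had the same sign and a smaller difference here, and 1, Srbd1, had the same sign and a larger one.

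**Figure D5:**
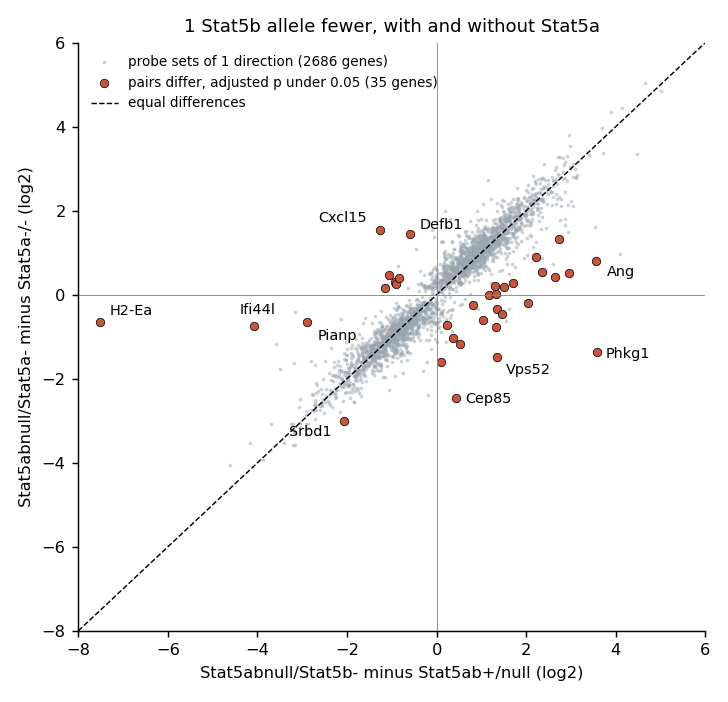
Log2 difference of a gene in single-Stat5b (Stat5abnull/Stat5a-) minus Stat5a-/- (vertical) against single-Stat5a (Stat5abnull/Stat5b-) minus Stat5ab+/null (horizontal), for the 2686 genes with all probe sets of 1 direction (grey) and the 35 genes with a called interaction (red). Most genes lie near the dashed line of equal differences, and Phkg1, Cep85 and Vps52 lie below it while H2-Ea, Ifi44l, Cxcl15 and Defb1 lie above.

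In some of these genes the single-Stat5b arrays stood apart from the other 3 genotypes. They were picked out after their values were seen. Cep85, a centrosomal protein, read 7.64, 7.71 and 7.56 on the Stat5a-/- arrays and 6.00, 4.46 and 5.07 on the single-Stat5b arrays, against 7.46 to 7.51 in Stat5ab+/null and 7.86 to 8.00 in single-Stat5a. Its difference was -2.46 ± 0.28 and its interaction -2.90 ± 0.40 (limma adjusted p = 0.00301), although its probe sets differed by 2.19 and -1.31 in the second pair, where the mean of 0.44 was not called. Cd59a, which blocks the complement attack complex, read 11.05 ± 0.03 in Stat5a-/- and 10.03 ± 0.19 in single-Stat5b (SD, n = 3). Its difference was -1.02 ± 0.18 with 1 probe set at -1.59 and the other at -0.45, against 0.37 in the second pair, not called (adjusted p = 0.101). Its interaction of -1.39 was called under 14 of 24 alternatives and was lost without any 1 of the Stat5a-/- arrays (adjusted p from 0.069 to 0.088), the first or the second Stat5ab+/null array, the second or the third single-Stat5a array, or the first single-Stat5b array. The uncharacterized gene 2610507I01Rik fell by 1.59 ± 0.16 and differed by 0.10 in the second pair, not called, where its probe sets gave -0.68 and 0.89. The single-Stat5b means of Cep85 (5.18) and 2610507I01Rik (5.39) lie below the signal filter. The sizes of their falls and interactions thus rest on signals near the lower end of the scale.

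Defb1, an antimicrobial beta-defensin of epithelia, was the 1 gene called above 0 with all probe sets of 1 direction in both the comparison and the interaction. It read 11.92, 11.56 and 10.91 on the Stat5a-/- arrays and 12.78, 12.77 and 13.16 on the single-Stat5b arrays, higher without overlap. Both probe sets rose, by 1.78 ± 0.29 and 1.10 ± 0.29, and the mean by 1.44 ± 0.27 (limma adjusted p = 0.00067). Defb1 differed by -0.58 in the second pair, not called (adjusted p = 0.0823), and its interaction of 2.02 ± 0.38 was called (adjusted p = 0.0278). The interaction lost its call under 8 of 24 alternatives. Without the second Stat5a-/- array, for example, it was 2.07 with an adjusted p of 0.0777.

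Vps52, a subunit of the tethering complex that returns vesicles to the Golgi, was called lower here and higher in the mean of the second pair, where its probe sets differed by -0.08 and 2.79. It read 7.27, 7.06 and 6.91 on the Stat5a-/- arrays and 5.54, 5.61 and 5.63 on the single-Stat5b arrays, a difference of -1.49 ± 0.18, against 1.35 in the second pair. The interaction of -2.84 ± 0.25 was called (adjusted p = 0.000117), but the brightest probe set alone gave -1.01 and was not called (adjusted p = 0.235). Ctsl, the lysosomal protease cathepsin L, differed by -0.77 ± 0.22 here and by 1.32 there, where its probe sets stood at -1.05 and 3.69, and had an interaction of -2.09, or -0.12 from its brightest probe set (not called). Rps6, of the small ribosomal subunit, fell by 0.61 ± 0.15 here, differed by 1.04 there and had an interaction of -1.64. That interaction was called under all 24 alternatives run, of which the limit of 3 or more probe sets could not end a call. The Rps6 difference here was -0.31 and not called without any 1 single-Stat5a array (limma adjusted p from 0.122 to 0.127). That is the value of its brightest probe set, the only 1 that passed the signal filter in those runs. The interaction of those runs rests on it as well. Phkg1, the muscle phosphorylase kinase subunit, fell by 1.37 ± 0.40 here and rose by 3.57 there, and its brightest probe set gave -0.64 here, not called (adjusted p = 0.227). The single-Stat5b means of Vps52 (5.59) and Phkg1 (5.14) lie below the signal filter, so the sizes of their falls rest on signals near the lower end of the scale.

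The genes with the same sign and a smaller difference here were Ang, Gm14057, Pink1, Fut10 and Ifi44l. Ang, the ribonuclease angiogenin, read 7.18, 7.29 and 7.02 on the Stat5a-/- arrays and 7.76, 7.95 and 8.17 on the single-Stat5b arrays, with all 3 probe sets higher by 0.69 to 0.89. It rose by 3.56 in the second pair. Pink1, a mitochondrial quality kinase, rose by 1.32 ± 0.19 here and 2.73 there, Fut10 by 0.90 ± 0.15 and 2.21, and Gm14057 by 0.43 ± 0.15 and 2.64. Gm14057 read 5.39, 5.55 and 5.66 on the Stat5a-/- arrays and 5.99, 6.17 and 5.74 on the single-Stat5b arrays. Both means lie below the signal filter, and of the 4 genotypes only single-Stat5a, with a mean of 8.27, lies above it. The brightest probe set gave 0.18 for Pink1 (adjusted p = 0.582) and 0.36 for Fut10 (0.109), neither called, and with no filter on low signal Fut10 was 0.04 (0.812). The Pink1 interaction of -1.41 was called under 14 of 24 alternatives and was lost without 7 of the 12 arrays, left out singly. Ifi44l, an interferon-induced gene, fell by 0.75 ± 0.24 here and by 4.07 there. Gm14057 lost the call of the comparison without the first or the second Stat5a-/- array or the first or the second single-Stat5b array (0.33 to 0.44, adjusted p from 0.0534 to 0.099). Ifi44l lost it without the third Stat5a-/- array (-0.67, 0.0616) or the first single-Stat5b array (-0.64, 0.065), and its brightest probe set gave -0.15.

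Srbd1, an RNA-binding domain protein, fell by 3.01 ± 0.12 here and by 2.08 in the second pair, the only 1 of the 14 with a larger difference here in the same direction. Its interaction of -0.93 ± 0.17 (adjusted p = 0.024) was called under 10 of 24 alternatives, and leaving out any 1 Stat5a-/-, Stat5ab+/null or single-Stat5a array ended the call. H2-Ea, a class II chain, carried the largest interaction, 6.86 ± 0.45, but it differed by -0.65 ± 0.32 here, not called (adjusted p = 0.0983), and by -7.51 in the second pair, where single-Stat5a arrays read 4.74 to 6.00. The mice were of mixed strain background, and alleles of these loci were not analysed here.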

How the data were processed

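RNA of 12 mammary samples, 3 per genotype, was hybridized as biotin-labelled cRNA to Affymetrix arrays. The values that the authors deposited are log2 signals, 1 for each probe set and array. RMA and Partek appear, with neither version nor role, in the submitters' processing notes. How either was set was not analysed here. Groups came from the genotype labels; replicates were numbered in record order. Of 45101 probe sets, 64 controls were left out of genes, 34945 named 1 gene and 932 several in the platform annotation. Probe sets with a mean under log2 6.04 (the 30th percentile) were removed, which left 26202. Genes at the edge were Ncs1, kept with a second probe set at 6.0402, and Cntn2, left out at 6.0398.

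Probe sets were averaged per gene and fitted with limma 3.58.1 (R 4.3.3), 4 genotype means, 8 residual degrees of freedom, eBayes and Benjamini-Hochberg adjustment. The fit was tested on simulated data. Comparison, 26 gene lists and the alternatives were chosen with earlier results of these data known. Named genes were Stat5a, Stat5b, the 10 largest rises and falls called with agreeing, non-overlapping probe sets, the 5 largest per direction with 4 or more probe sets, the 8 largest interactions per sign, up to 4 called genes per list and the 6 widest opposed genes; other list members and the remaining genes called in both tests were added to describe their groups. Alternatives changed the value per gene, normalization, signal filter, number of probe sets, variance model and threshold, or left out each array.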

Additional observations from a re-analysis of the deposited data

Results flagged for a closer look

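The interaction between the pairs was called, with all probe sets of 1 sign, in the 16 genes given here, the 8 largest of each sign. Above 0, so that single-Stat5b minus Stat5a-/- exceeded single-Stat5a minus Stat5ab+/null, were H2-Ea (6.86), Ifi44l (3.32), Cxcl15 (2.81), Pianp (2.25), Defb1 (2.02), Pik3ap1 (1.53), Rasgrf1 (1.32) and Tnfrsf19 (1.24). Cxcl15, an epithelial chemokine, differed by 1.55 ± 0.31 in the first pair, with probe sets at -0.45 and 3.54, and by -1.26 in the second. Pianp, Pik3ap1, Rasgrf1 and Tnfrsf19 also had probe sets of both directions in the first pair.

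Below 0 were Phkg1 (-4.95), Cep85 (-2.90), Vps52 (-2.84), Ang (-2.77), Ppp1r3e (-2.43), Trim34a (-2.24), Gm14057 (-2.21) and Ctsl (-2.09). The single-Stat5b means of Phkg1, Cep85, Vps52 and Gm14057 lie below the signal filter. Ppp1r3e, a glycogen-targeting phosphatase subunit, and Trim34a had probe sets of both directions in the first pair and rose by 2.95 and 2.04 in the second. All values are log2 differences of differences from limma, with 3 arrays per genotype. Of 24 alternatives each, Rasgrf1 kept its call in 9, Pik3ap1 in 15, Defb1 in 16 and Tnfrsf19 in 18, and H2-Ea, Ifi44l and Cxcl15 in all 24. The limit of 3 or more probe sets is among the 24 and could not end a call. With the filter at the 50th percentile, Ifi44l rested on its brightest probe set alone.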

How the results depend on the processing

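No gene called with agreeing probe sets was called so in the opposite direction under any of the 25 alternatives run. Most of these keep the same probe set differences and so could not turn a direction. Only normalization, array weights and leaving out a Stat5a-/- or single-Stat5b array change those differences. Centring arrays on their median moved the median difference of all genes tested from 0.01 to -0.11 and quantile normalization to -0.10, and both moved the share of rises among agreeing calls from 54.1% to 44.7%. Counts of genes called, called higher, called lower and called in the interaction were 4132, 1225, 1041 and 35. They became 1850, 381, 300 and 11 with 3 or more probe sets, which tests fewer genes, and 2270, 574, 497 and 7 with every probe set called. With at least 2-fold they were 1946, 790 and 631. The interaction count was also 19 with the filter at the 50th percentile, 426 with array weights and 16 at adjusted p under 0.01. From the brightest probe set the interaction was called in 26 genes, of which 16 were among the 35. Calls lost there included Srbd1 (-0.43, limma adjusted p = 0.936), Pink1 (-0.93, 0.581), Fut10 (-1.13, 0.0866) and Ppp1r3e (-1.18, 0.0904). Leaving out single arrays gave 3599 to 4197, 1144 to 1360, 931 to 1123 and 19 to 63. The interaction count was 22 and 19 without the first and second Stat5a-/- array, 21 and 23 without the second and the third Stat5ab+/null array, 23 without the first single-Stat5a array and 63 without the second single-Stat5b array. The causes were not tested.

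Differences reversed with the brightest probe set for Pianp (0.30), Rasgrf1 (-0.96), Gm2a (0.38), Rab2a (-0.46), Ust (-2.80), Aldh2 (-0.57), Stat5a (0.68), Stat5b (0.043), Clca3a2 (-1.57) and Phgdh (0.91), with the median of probe sets for Casp9 (-0.52) and Iah1 (1.28), and with the 50th percentile filter for Pianp (0.30), Rasgrf1 (-0.96), Ust (-2.80) and Stat5a (0.68). These genes have probe sets of both directions. No paired analysis was possible because the labels give the genotypes no shared replicate numbers. The number of arrays limits the precision, and background signal per probe was not analysed here.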
